A study of Mus musculus with 30 samples.

Results

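The comparison described here is that of non-tumor colon after azoxymethane and dextran sulfate sodium (AOM-DSS) with untreated colon in mice that lack Smox. It covers 6 of the 30 libraries of the series, 3 on each side, chosen by their labels and not by any measured value. Bulk RNA of the colon was sequenced in male C57BL/6 mice, bred in house and aged 8 to 12 weeks, of which those compared here were Smox-/- throughout. The AOM-DSS mice received 12.5 mg/kg azoxymethane, a colon carcinogen, by injection into the abdominal cavity. Dextran sulfate sodium, an agent toxic to the gut epithelium, followed at 4% in 3 cycles of 5 days that began on days 5, 26 and 47. The labels give these samples as colitis without tumor. The untreated Smox-/- mice are labelled with neither agent, and neither group with spermidine. Where a difference from other mice is described, the same exposure was taken in wild-type (WT) mice, or in Smox-/- mice that also drank 14 mM spermidine, each with its own colon without AOM-DSS. The experiment ended at day 56, and the series states 3 mice per group. The labels do not say which exons of Smox are deleted, where along the colon a piece was cut or how far it lay from a tumor.

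Spermine oxidase, encoded by Smox, oxidises the polyamine spermine to spermidine and releases hydrogen peroxide and an aldehyde. In AOM-DSS treatment repeated injury and repair of the colon lining accompany a mutagen, and tumors form mostly in the distal colon. The colon surface is covered by absorptive colonocytes, goblet cells that make mucus, and rarer enteroendocrine and tuft cells, and its position along the gut is marked by homeobox genes of the Hox clusters.

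The 6 libraries held between 50706102 and 81011304 counts. Levels are in CPM, gene counts put on a common library size, and are compared only within a gene because they are not divided by length. Epcam, which marks gut epithelium, was at 1886, 1994 and 2744 CPM after AOM-DSS, against 2244, 2156 and 2120 CPM in untreated colon, so that both groups held epithelium. Pieces differed in what else they contained. The 15 genes of squamous epithelium, which lines the anal canal, summed to 16, 17.9 and 7.42 CPM after AOM-DSS, against 9.81, 114 and 3291 CPM in untreated replicates 1, 2 and 3. The 13 genes of skeletal muscle summed to 6.83, 9.25 and 6.94 CPM after AOM-DSS, against 18, 75.1 and 354 CPM untreated. Smooth muscle genes were high in AOM-DSS replicate 2, with a sum of 5382 CPM, and in untreated replicate 1, with 4339 CPM, against 1139 to 1760 CPM in the other 4 libraries. Genes of MHC class II summed to 3927 CPM in AOM-DSS replicate 3, against 255 and 400 CPM in the other AOM-DSS libraries and 1054 to 2119 CPM in untreated colon. In bulk tissue fewer cells of a type and less RNA per cell cannot be told apart. Whether these differences in content had a part in the results was not tested beyond the values given without single libraries.

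Smox itself (GRCm38 chromosome 2, 131491496 to 131525922) was still transcribed in the libraries labelled as lacking it. Its level was 27.6, 26.1 and 35.9 CPM after AOM-DSS, against 28.7, 36.2 and 27.4 CPM in untreated colon. The groups overlapped, and the log2 fold change was -0.04 ± 0.24 (SE; adjusted p = 0.967). Counts per gene do not show whether these transcripts lack the deleted part.

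Of 19558 genes tested, 15 passed an adjusted p of 0.05 (0.0767%), of which 1 rose (0.00511%) and 14 fell (0.0716%). The test was edgeR's quasi-likelihood test in 1 model of the 30 libraries, with Benjamini-Hochberg adjustment over all genes tested. The gene that rose encodes an enzyme that activates peptide hormones, and those that fell include transcription factors of gut position and pattern, a manganese exporter, the entry enzyme of the urea cycle and a protein of the membrane skeleton. Before adjustment 2533 genes had p under 0.05 (13%), the fitted change was above 0 in 51.5% of genes and below 0 in 48.2%, and the median log2 fold change of all genes was 0.01. The number called depended on single libraries. It was 1, 0 and 3 without AOM-DSS replicate 1, 2 or 3, and 4, 25 and 5 without untreated replicate 1, 2 or 3. DESeq2 called 529 genes, 155 higher and 374 lower, and a model of only these 6 libraries called 61, 13 higher and 48 lower.

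Pam, which amidates the end of peptide hormones and neuropeptides, was the gene that rose. It lies on chromosome 1 from 97795114 to 98095646 and was at 311, 337 and 250 CPM after AOM-DSS, against 135, 111 and 86.3 CPM in untreated colon. All 3 AOM-DSS libraries lay above all untreated ones, with a log2 fold change of 1.43 ± 0.23 (2.70-fold, adjusted p = 0.0105). In the alternatives tried, its log2 fold change ran between 1.28 and 1.61.

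The deepest fall among the called genes was that of Osr2, a zinc finger transcription factor of embryonic patterning (chromosome 15, 35296098 to 35303305). Osr2 was at 0.289, 0.138 and 0.0431 CPM after AOM-DSS, against 47.8, 57.8 and 64.0 CPM in untreated colon. It was close to lost in every AOM-DSS library and clearly expressed in every untreated one, with a log2 fold change of -8.43 ± 1.52 (adjusted p = 0.0299). Slc30a10, which exports manganese from cells (chromosome 1, 185454848 to 185468762), was at 0.085, 0.518 and 0.0647 CPM after AOM-DSS, against 48.5, 21.8 and 58.3 CPM untreated. Its log2 fold change was -7.55 ± 1.41 (adjusted p = 0.0321), without overlap. Cps1, the mitochondrial enzyme that feeds ammonia into the urea cycle (chromosome 1, 67123026 to 67231259), was at 0.629, 0.501 and 0.862 CPM after AOM-DSS, against 21.9, 32.0 and 32.8 CPM untreated. It fell by 5.45 ± 0.83 on the log2 scale (adjusted p = 0.00693).

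Hoxd10, a homeobox gene of the HoxD cluster, was at 0.323, 1.02 and 0.388 CPM after AOM-DSS, against 15.6, 10.4 and 8.02 CPM in untreated colon, a log2 fold change of -4.28 ± 0.80 (adjusted p = 0.0321). Mnx1, a homeobox transcription factor known from motor neurons and the pancreas, was at 0.204, 0.138 and 0.302 CPM after AOM-DSS, against 2.97, 1.79 and 1.73 CPM untreated. Cpn1, the catalytic subunit of carboxypeptidase N, was at 1.53, 2.33 and 1.40 CPM after AOM-DSS, against 29.1, 20.3 and 43.4 CPM untreated. In each of these genes the lowest untreated library lay above the highest AOM-DSS library.

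Genes of lipid and transport functions were also among the falls. Agmo, the monooxygenase that cleaves ether lipids, was at 1.43, 1.78 and 1.42 CPM after AOM-DSS, against 10.9, 5.79 and 8.35 CPM in untreated colon (5.41-fold lower, adjusted p = 0.0208). Slc16a11, of the monocarboxylate transporter family, was at 1.33, 1.05 and 0.841 CPM after AOM-DSS, against 6.38, 3.18 and 6.65 CPM untreated (5.02-fold lower, adjusted p = 0.00693). Add3, an adducin that links actin and spectrin under the membrane, was at 51.8, 52.5 and 50.4 CPM after AOM-DSS, against 176, 127 and 152 CPM untreated, and its AOM-DSS libraries differed little among themselves. Fam83b, a signalling protein of the EGF receptor pathway, fell 2.96-fold (adjusted p = 0.0471), Sh3rf2, a protein with SH3 and RING domains, fell 3.32-fold, and AA986860 fell 3.65-fold (adjusted p = 0.0301 and 0.0300).

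Lrit3, a leucine-rich repeat protein known from the retina, was called but lay outside the rule by which genes were named, and was picked after its values were seen. It was low in both groups, at 0.034, 0.0173 and 0.0216 CPM after AOM-DSS and 0.892, 0.443 and 0.785 CPM untreated (26.7-fold lower, adjusted p = 0.00693). The called genes kept their direction in the alternatives that gave them a value, which were 12 for Lrit3, removed by the filter of 1 CPM, and 13 for each of the others, and without AOM-DSS replicate 2 no gene passed the threshold.

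**Figure D1:**
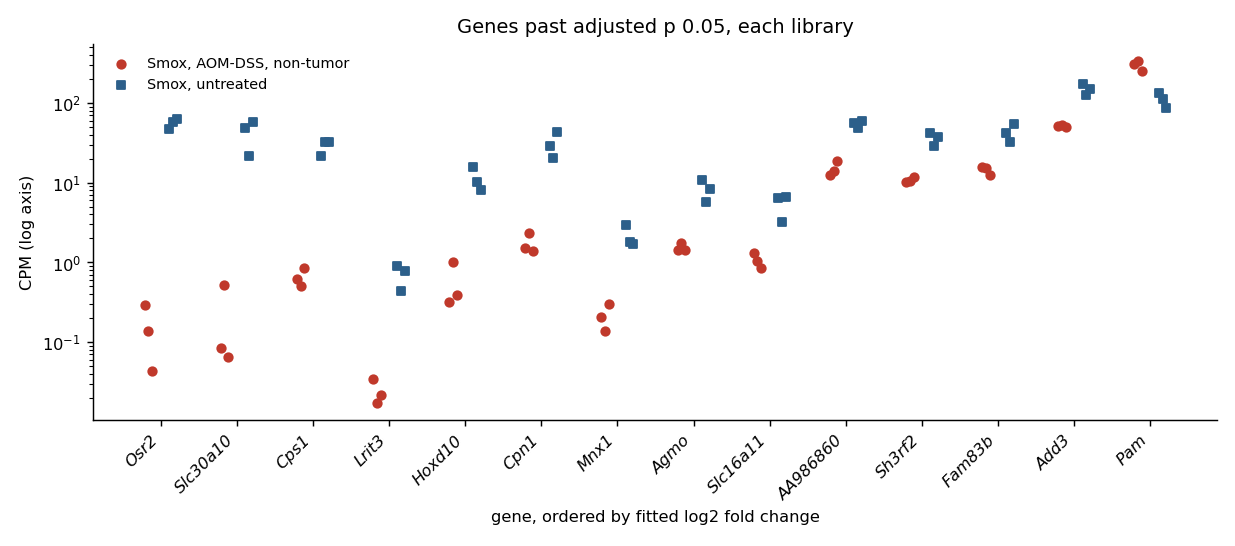
Levels of 14 of the 15 genes past the adjusted p of 0.05 in Smox-/- colon, in CPM on a log axis, one point per library (circles, AOM-DSS non-tumor; squares, untreated; n = 3 each). In each gene drawn the groups do not overlap, and only Pam, at the right, is higher after AOM-DSS.

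Genes that came next among the rises did not pass the threshold. Chil1, a chitinase-like protein made in inflamed epithelium and by macrophages, was at 7.22, 10.9 and 2.89 CPM after AOM-DSS, against 0.139, 0.443 and 0.348 CPM in untreated colon (log2 fold change 4.48 ± 0.90, adjusted p = 0.0511). Tacr1, the receptor of substance P, was at 12.1, 28.0 and 5.73 CPM after AOM-DSS, against 2.36, 2.33 and 0.85 CPM untreated (adjusted p = 0.0736). St3gal3, which adds sialic acid to glycans, was at 104, 87.1 and 97.1 CPM after AOM-DSS, against 33.6, 33.6 and 23.1 CPM untreated (adjusted p = 0.0601). Their groups did not overlap, which was true in the higher direction of 10.1% of all genes tested. The others of lowest p were Hoxa7, Hoxa5, Dipk1b, Shoc1, Tmx4, Matn4, Rbis and Nudt5, with log2 fold changes between 0.55 and 3.38 and adjusted p between 0.0505 and 0.0802.

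The Hox genes are arranged in 4 clusters whose members are switched on in order along the body axis, and in the adult colon they mark position. Of 38 Hox genes, 34 were tested. In the HoxA cluster on chromosome 6 all 11 tested genes had higher fitted levels after AOM-DSS, and in 10 the groups did not overlap. Over all genes tested, 10.1% were higher without overlap. In the HoxB cluster on chromosome 11 the fitted change was negative in 8 of 9 genes, in the HoxC cluster on chromosome 15 in 5 of 6, and in the HoxD cluster on chromosome 2 in 7 of 8. The groups did not overlap in the lower direction in 4 HoxB, 4 HoxC and 7 HoxD genes, where 12% of all genes tested did so. Of the 34, Hoxd10 alone passed the threshold, and 3 HoxC genes had no count in any AOM-DSS library.

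Hoxd13, the last gene of its cluster and a marker of the distal hindgut, was at 3.08, 5.39 and 2.31 CPM after AOM-DSS, against 131, 105 and 74.7 CPM in untreated colon (log2 fold change -4.85 ± 1.31, adjusted p = 0.116). Hoxb8 was at 0.527, 0.639 and 0.323 CPM after AOM-DSS, against 17.8, 24.7 and 33.0 CPM untreated (adjusted p = 0.0675). Hoxa7 was at 66.0, 64.8 and 79.2 CPM after AOM-DSS, against 32.8, 39.7 and 25.7 CPM untreated (log2 fold change 1.10 ± 0.22, adjusted p = 0.0505). The groups did not overlap in these 3 genes, with Hoxa7 higher and the other two lower. Untreated replicates 2 and 3 also held the high squamous sums, 114 and 3291 CPM, whereas untreated replicate 1 was at 9.81 CPM. Among untreated libraries replicate 1 was the highest in Hoxd13 and the lowest in Hoxb8. The place along the colon of each piece is not given, so that its part in the Hox levels was not tested. Hoxb13, which marks the distal colon, overlapped at 152, 162 and 240 CPM after AOM-DSS and 282, 121 and 126 CPM untreated. Hoxb9 likewise overlapped, at 57.3, 57.8 and 43.7 CPM after AOM-DSS and 46.0, 54.3 and 64.8 CPM untreated. Both changed sign with single libraries left out.

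**Figure D2:**
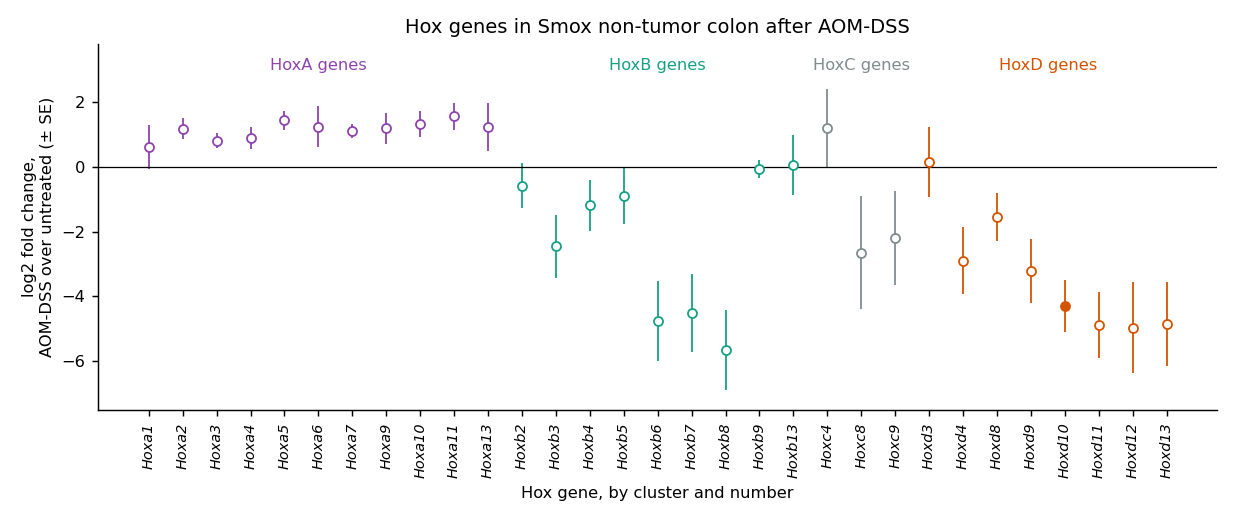
Log2 fold change, AOM-DSS over untreated Smox-/- colon, with its SE, for 31 Hox genes by cluster and number; the 3 genes with no count in any AOM-DSS library are not drawn. HoxA genes lie above 0, most HoxB, HoxC and HoxD genes below it, and the filled point is Hoxd10, the member past the threshold.

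Upstream sequences are shown for Hoxa7, the HoxA gene of lowest p, and for Hoxd10, the called HoxD gene, since their levels lay on opposite sides. They are the 250 bases before the gene start from RefSeq on GRCm38.p6, read along the gene. Capitals mark TTTATG, a core bound by CDX and several HOX factors, searched on both strands. It stood in 10.8% of 32851 promoter windows of this length, and in those of 5 of the 20 tested Hox genes with an entry. Hoxa7 lies at chr6:52218574-52218823 on the minus strand and holds it at 2 places, and Hoxd10 lies at chr2:74691641-74691890 on the plus strand and holds none. The match did not follow the direction of the fitted change, since Hoxb8, which was lower, holds it at 2 places and the windows of the other HoxA genes with an entry hold none.
Hoxa7: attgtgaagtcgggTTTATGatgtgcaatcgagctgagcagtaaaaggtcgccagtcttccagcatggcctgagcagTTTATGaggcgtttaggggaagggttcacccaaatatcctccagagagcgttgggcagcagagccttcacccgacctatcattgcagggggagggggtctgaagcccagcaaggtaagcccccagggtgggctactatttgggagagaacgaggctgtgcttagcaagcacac
Hoxd10: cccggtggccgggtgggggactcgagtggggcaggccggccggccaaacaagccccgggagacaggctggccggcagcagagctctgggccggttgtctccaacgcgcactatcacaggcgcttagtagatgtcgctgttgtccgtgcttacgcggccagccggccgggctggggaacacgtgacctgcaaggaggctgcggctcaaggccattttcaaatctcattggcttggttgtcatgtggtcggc

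No gene of the colonocyte list passed the threshold. Car1, the carbonic anhydrase of colonocytes, was at 1084, 497 and 565 CPM after AOM-DSS, against 10150, 6099 and 13680 CPM in untreated colon (log2 fold change -3.80 ± 0.92, adjusted p = 0.0914). Aqp4, a water channel, was at 1019, 525 and 967 CPM after AOM-DSS, against 88.9, 221 and 74.7 CPM untreated, and Slc9a3, the sodium-proton exchanger of the brush border, at 244, 774 and 225 CPM after AOM-DSS, against 42.3, 69.4 and 71.9 CPM untreated. Car1 was thus lower and the pair of transporters higher, each without overlap. Of 16 colonocyte genes 12 had a negative fitted change. The groups did not overlap in 2 higher and 2 lower genes, beside 10.1% and 12% of all genes. The median log2 fold change was -0.44, which was -0.20 without AOM-DSS replicate 1 and -0.11 without untreated replicate 1. The 9 general epithelial genes had a median of 0.02, which turned to -0.17 without AOM-DSS replicate 3, beside 0.01 for all genes.

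Of 24 genes of xenobiotic metabolism, which make foreign compounds soluble, none passed the threshold. In 21 the fitted change was negative, beside 48.2% of all genes, and in 16 the groups did not overlap in the lower direction, beside 12% of all genes. Their median was -1.24. Cyp2c55, a cytochrome P450 abundant in colon, was at 288, 80.0 and 41.5 CPM after AOM-DSS, against 2378, 630 and 2105 CPM in untreated colon (adjusted p = 0.23). Cyp4b1, a further P450, was at 0.34, 1.23 and 0.194 CPM after AOM-DSS, against 108, 15 and 59.4 CPM untreated (log2 fold change -6.67, adjusted p = 0.0511). The carboxylesterase Ces1g was at 11, 6.14 and 7.65 CPM after AOM-DSS, against 267, 93.8 and 241 CPM untreated. In each of these genes untreated replicate 2 was the lowest of its group and still lay above every AOM-DSS library. All 9 tested genes of bile acid handling had a negative fitted change, 5 without overlap, and none passed the threshold. Slc51a, a subunit of the transporter that passes bile acids into the blood, was at 0.425, 1.76 and 0.625 CPM after AOM-DSS, against 68.4, 51.2 and 119 CPM untreated (log2 fold change -6.40, adjusted p = 0.0729). Slc10a2, which takes bile acids up, was at 5.15, 11.3 and 5.63 CPM after AOM-DSS, against 83.5, 53.7 and 119 CPM untreated.

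Of 16 genes of fatty acid oxidation and ketogenesis, 14 had a negative fitted change, 3 of them without overlap, beside 12% of all genes, with a median of -0.40 and no call. Pdk4, which shuts glucose carbon out of the citric acid cycle, was at 0.85, 3.68 and 0.905 CPM after AOM-DSS, against 46.5, 16 and 24.3 CPM in untreated colon (log2 fold change -3.99, adjusted p = 0.143). All 3 AOM-DSS libraries lay below all untreated ones. The 25 nuclear genes of oxidative phosphorylation had a median of 0.04, between -0.0541 without AOM-DSS replicate 3 and 0.13 without AOM-DSS replicate 2.

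**Figure D3:**
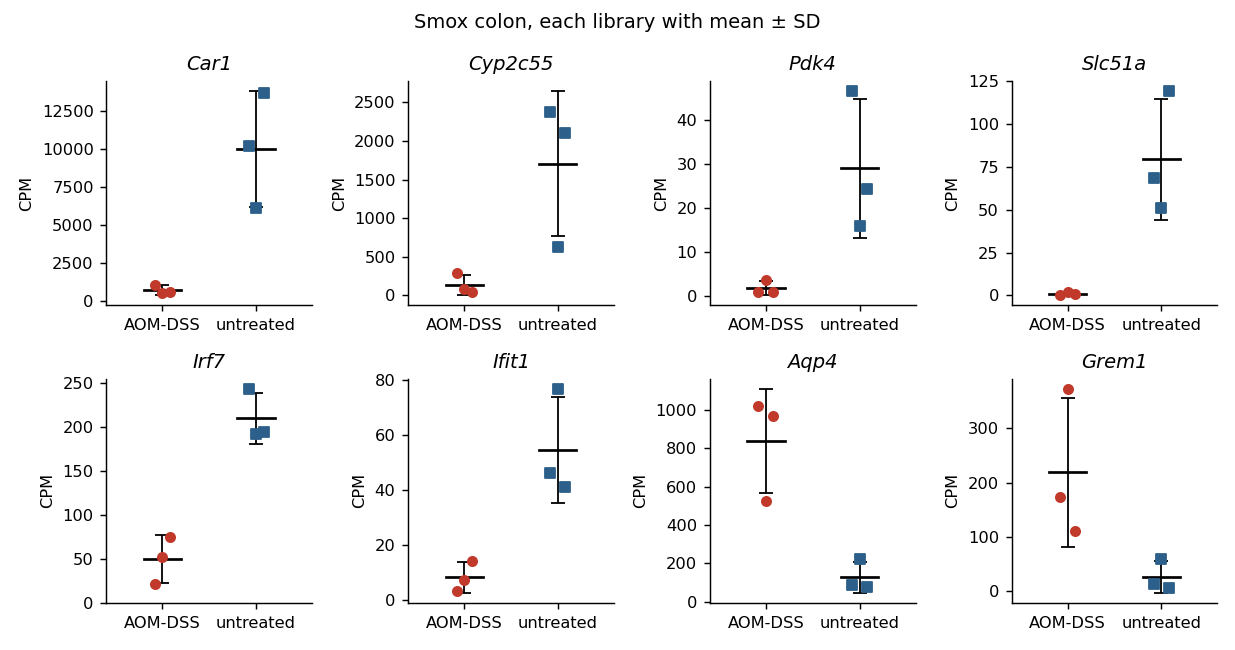
Levels of 8 genes in Smox-/- colon in CPM on linear axes, one point per library, with the mean and SD of each group (n = 3; circles, AOM-DSS non-tumor; squares, untreated). The groups do not overlap in any of them, with Aqp4 and Grem1 higher after AOM-DSS and the other 6 lower; none passed the adjusted threshold.

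Of 28 genes induced by interferons, which cells use against viruses, none passed the threshold. The fitted change was negative in 26, and 13 did not overlap in the lower direction, beside 12% of all genes, with a median log2 fold change of -1.29. Irf7, a transcription factor that amplifies the interferon response, was at 21.0, 52.6 and 75.4 CPM after AOM-DSS, against 244, 192 and 194 CPM in untreated colon (log2 fold change -2.08, adjusted p = 0.183). Ifit1, which binds foreign RNA, was at 3.25, 7.48 and 14.3 CPM after AOM-DSS, against 46.1, 76.8 and 41.2 CPM untreated. Isg15, a ubiquitin-like modifier, was at 2.31, 4.86 and 12.5 CPM after AOM-DSS, against 25.5, 37.6 and 14.6 CPM untreated. In these 3 genes AOM-DSS replicate 3, the library high in MHC class II, was the highest of its group. Gbp2, a guanylate-binding protein also driven by interferon gamma, overlapped at 8.89, 16.5 and 98.9 CPM after AOM-DSS and 110, 353 and 50.9 CPM untreated. The median of the list was -2.50 without AOM-DSS replicate 3, -0.84 without AOM-DSS replicate 1 and -0.65 without untreated replicate 2.

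Upstream sequences of 3 of these genes are shown because the fitted changes of the list were mostly of 1 sign. Capitals mark the core of the interferon-stimulated response element, which is GAAA, any 2 bases and GAAA, on either strand, and matches may overlap. It stood in 2.98% of the 32851 windows of 250 bases, and in those of 13 of the 20 interferon genes with an entry. The windows are Ifit1 at chr19:34640639-34640888 (plus strand), Ifit3, also an RNA-binding antiviral protein, at chr19:34583279-34583528 (plus strand) and Isg15 at chr4:156200819-156201068 (minus strand).
Ifit1: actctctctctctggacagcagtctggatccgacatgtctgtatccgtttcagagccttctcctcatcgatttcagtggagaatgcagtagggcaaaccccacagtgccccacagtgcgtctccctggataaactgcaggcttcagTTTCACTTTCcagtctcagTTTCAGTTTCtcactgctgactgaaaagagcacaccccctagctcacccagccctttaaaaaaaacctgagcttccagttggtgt
Ifit3: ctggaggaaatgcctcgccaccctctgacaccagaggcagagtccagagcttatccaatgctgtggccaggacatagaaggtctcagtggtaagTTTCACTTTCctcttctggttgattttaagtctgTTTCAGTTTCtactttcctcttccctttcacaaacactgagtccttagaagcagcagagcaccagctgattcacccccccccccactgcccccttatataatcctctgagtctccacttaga
Isg15: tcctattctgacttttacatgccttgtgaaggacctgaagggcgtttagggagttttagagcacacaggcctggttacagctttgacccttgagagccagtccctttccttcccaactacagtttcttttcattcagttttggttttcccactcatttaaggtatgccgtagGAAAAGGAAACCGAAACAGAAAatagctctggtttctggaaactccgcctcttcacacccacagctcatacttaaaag

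Markers of neutrophils and acute inflammation did not separate the groups. Of 27 such genes 21 had a positive fitted change, with a median of 0.70. In 3 the groups did not overlap in the higher direction, beside 10.1% of all genes. Nos2, which makes nitric oxide in inflamed tissue, was at 23.0, 72.3 and 352 CPM after AOM-DSS, against 75.1, 192 and 61.6 CPM in untreated colon. Saa3, an acute phase protein, was at 439, 20.9 and 35.2 CPM after AOM-DSS, against 14.9, 144 and 24.7 CPM untreated. Each has 1 high AOM-DSS library, replicate 3 for Nos2 and replicate 1 for Saa3, and leaving it out turned the sign of the fitted change. The list median was -0.51 without AOM-DSS replicate 1, 0.23 without untreated replicate 1, 2.0 without untreated replicate 2 and 1.17 without AOM-DSS replicate 2 or 3. Of 18 antimicrobial genes of the epithelium 10 had a positive fitted change. Zg16, a lectin of goblet cells, was at 1713, 2477 and 2656 CPM after AOM-DSS, against 947, 369 and 898 CPM untreated, while Reg4, a lectin of deep crypt cells, was at 206, 115 and 218 CPM after AOM-DSS, against 613, 443 and 718 CPM untreated. Neither passed the threshold (adjusted p = 0.264 and 0.136).

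Among rarer epithelial cells, 10 of 11 tuft cell genes had a negative fitted change and 8 did not overlap, beside 12% of all genes, with no call. Their median of -1.20 was -1.92 without AOM-DSS replicate 1 and -0.92 without AOM-DSS replicate 3. Trpm5, the cation channel of tuft cells, was at 0.731, 1.30 and 0.69 CPM after AOM-DSS, against 4.36, 4.43 and 4.35 CPM in untreated colon (adjusted p = 0.204). Pou2f3, their defining transcription factor, was at 0.187, 0.207 and 0.151 CPM after AOM-DSS, against 1.09, 0.596 and 1.21 CPM untreated. Of 14 enteroendocrine genes 7 had a positive and 7 a negative fitted change. The groups did not overlap in 5 higher and 5 lower genes, beside 10.1% and 12% of all genes. The median was 0.14, and -0.0828 without AOM-DSS replicate 1. Nts, which encodes neurotensin, was among the lower genes. It was at 0.221, 0.864 and 0.323 CPM after AOM-DSS, against 12.8, 10.6 and 14.6 CPM untreated (log2 fold change -4.74, adjusted p = 0.087). Goblet cell genes had a median of 0.14, between 0.0736 without AOM-DSS replicate 3 and 0.43 without AOM-DSS replicate 2, and Muc2, the main mucin of the colon, overlapped at 4787, 3215 and 5512 CPM after AOM-DSS and 2382, 4205 and 3663 CPM untreated.

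In lymphocytes, 18 of 21 T and NK cell genes had a negative fitted change and 10 did not overlap, beside 12% of all genes, with a median of -0.85 and no call. Itgae, the integrin of T cells within the epithelium, was at 0.884, 1.83 and 2.31 CPM after AOM-DSS, against 4.56, 4.44 and 6.00 CPM in untreated colon, and Cd8a at 0.629, 0.657 and 1.14 CPM after AOM-DSS, against 3.89, 2.67 and 5.75 CPM untreated. Both separate the groups but did not pass the threshold (adjusted p = 0.118 and 0.304). With single libraries left out the list median ran from -1.42 without AOM-DSS replicate 3 to -0.62 without AOM-DSS replicate 1. Of 15 B and plasma cell genes 12 had a positive fitted change, 5 without overlap, beside 10.1% of all genes, with no call. Their summed level was 2711, 4605 and 2508 CPM after AOM-DSS, against 510, 2360 and 958 CPM in untreated colon, without overlap. Their median of 0.41 was 0.16 without untreated replicate 3, 0.23 without AOM-DSS replicate 1, 0.64 without AOM-DSS replicate 3 and 0.89 without untreated replicate 1. Igha, the constant region of immunoglobulin A, overlapped at 1740, 3108 and 1506 CPM after AOM-DSS and 271, 1513 and 582 CPM untreated. Of 15 macrophage genes 13 had a positive fitted change, 1 without overlap, with a median of 0.15 that ran from 0.0019 without untreated replicate 3 to 0.57 without untreated replicate 2.

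Of 17 genes of enteric neurons and glia, whose ganglia lie in the gut wall, 16 had a positive fitted change, 6 without overlap, where 10.1% of all genes were higher without overlap, and none passed the threshold. The list had a median of 1.61, which was 0.89 without AOM-DSS replicate 2. Elavl4, an RNA-binding protein of neurons, was at 5.68, 11 and 4.12 CPM after AOM-DSS, against 2.60, 0.953 and 0.953 CPM in untreated colon (adjusted p = 0.222). Nos1, the neuronal nitric oxide synthase, was at 20.2, 51.5 and 13.2 CPM after AOM-DSS, against 11.8, 3.01 and 3.60 CPM untreated. Both were highest in AOM-DSS replicate 2 and, among untreated libraries, in replicate 1, the same pair that was high in smooth muscle genes such as Myh11, at 218, 985 and 145 CPM after AOM-DSS and 920, 316 and 311 CPM untreated. Grem1, a BMP antagonist of stromal cells, was at 174, 373 and 110 CPM after AOM-DSS, against 13.3, 60.0 and 6.73 CPM untreated (log2 fold change 3.04, adjusted p = 0.187). Of 18 matrix genes 16 had a positive fitted change, and Grem1 was the 1 without overlap. Their median of 0.81 ran from 0.17 without AOM-DSS replicate 1 to 1.38 without untreated replicate 2, and was 0.42 without AOM-DSS replicate 2, 0.44 without untreated replicate 1 and 0.47 without untreated replicate 3.

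No gene of the lists that follow passed the threshold. All 15 genes of the mitochondrial genome had a positive fitted change, 11 without overlap, beside 10.1% of all genes, with a median of 0.72. They took 4.52 to 6.10% of counts after AOM-DSS, against 3.12 to 4.12% in untreated colon. Of 21 genes of cholesterol synthesis 18 had a positive fitted change, 9 without overlap, beside 10.1% of all genes, with a median of 0.28. Hmgcs1, which makes the precursor of mevalonate, was at 458 to 557 CPM after AOM-DSS, against 387 to 399.7 CPM untreated. All 24 cell cycle genes had a negative fitted change, but only 1 without overlap, beside 12% of all genes, and none had an unadjusted p under 0.05. Their median of -0.36 was -0.13 without untreated replicate 2. Mki67, a marker of dividing cells, overlapped at 172, 137 and 131 CPM after AOM-DSS and 173, 253 and 148 CPM untreated. The 15 immediate early genes had a median of -0.63, and Fosb was at 2.65, 1.66 and 1.94 CPM after AOM-DSS, against 5.91, 22.9 and 10.8 CPM untreated. The 16 tight junction genes had a median of -0.26, and Cldn4, a sealing claudin, was at 48.9, 80.1 and 95.8 CPM after AOM-DSS, against 168, 226 and 193 CPM untreated.

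Polyamine metabolism, in which Smox acts, had 11 of 18 genes with a positive and 7 with a negative fitted change and a median of 0.11, which was 0.0489 without AOM-DSS replicate 1 and 0.0562 without untreated replicate 1. Eif5a, the translation factor that carries the spermidine-derived residue hypusine, was at 598, 483 and 555 CPM after AOM-DSS, against 472, 564 and 449 CPM in untreated colon. Oaz1, the antizyme that restrains polyamine synthesis, was at 303, 295 and 359 CPM after AOM-DSS, against 302, 264 and 275 CPM untreated. Both overlapped. Arg1, which makes ornithine, was at 6.97, 7.14 and 6.19 CPM after AOM-DSS, against 1.84, 36.8 and 155 CPM untreated, and followed the squamous genes in its high values in untreated replicates 2 and 3. The median of 14 targets of p53 ran from -0.0278 to 0.17 with each of the 6 libraries left out, and that of 10 genes of alkylation damage repair from -0.14 to 0.0384, so that both turned sign. No gene of these lists was called.

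**Figure D4:**
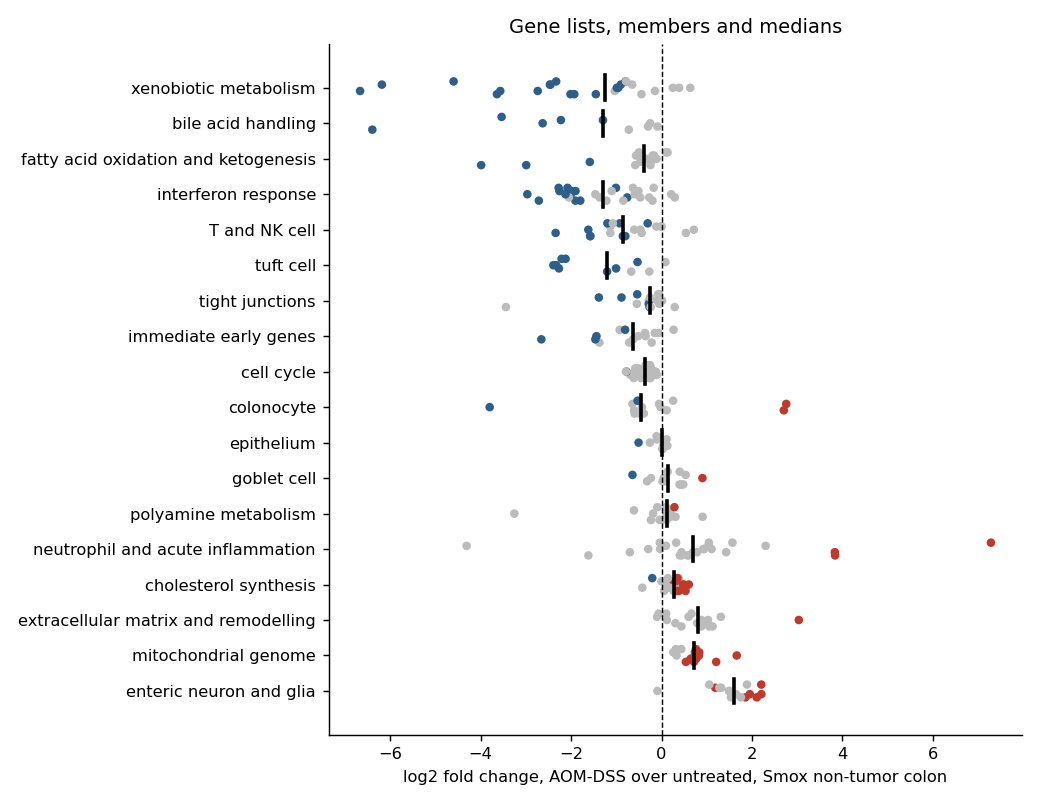
Log2 fold change, AOM-DSS over untreated Smox-/- colon, of the tested members of 18 gene lists, one point per gene. Red and blue points are genes whose groups do not overlap, higher and lower after AOM-DSS, and grey points overlap; bars are list medians and the dashed line is the median of all genes, 0.01. Among the 18 lists drawn, chosen from 44, xenobiotic, bile acid, interferon and tuft cell medians lie lowest, between -1.20 and -1.30. That of enteric neuron and glia is the highest drawn, at 1.61. Lists not drawn include lower medians, for squamous epithelium (-7.13), skeletal muscle (-6.41), adipocyte (-4.84) and distal hindgut position genes (-4.28), and a higher one, for Paneth cells (1.88).

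The same exposure in WT mice called 1260 genes (6.44%), of which 345 were higher (1.76%) and 915 lower (4.68%). Of the 15 genes called in Smox-/- colon, 14 had the same sign in WT, 13 of them with an unadjusted p under 0.05. In WT 9 of the 15 were called too, which is 60% of the 15 and 0.714% of the WT calls. The share of all genes tested with the same sign was not computed. The test of the difference in AOM-DSS change between genotypes called 0 genes (0%) with edgeR, whereas the count by DESeq2 was 1236. Before adjustment 3088 genes lay under 0.05 (15.8%). The number called by edgeR was 203 without WT untreated replicate 1, 415 without WT untreated replicate 2, 460 without Smox AOM-DSS replicate 3 and 0 without WT untreated replicate 3, in which the mitochondrial genome held 21.7% of counts. The call in WT and its lack in Smox-/- colon thus do not show that a gene differs between them.

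Smox averaged 46.9 ± 4.61 CPM after AOM-DSS and 26.5 ± 1.23 CPM in untreated colon of WT mice (SD, n = 3 each), where it rose (adjusted p = 0.0446). The difference from its change in Smox-/- colon had an adjusted p of 0.189. Cps1 averaged 10.4 ± 5.37 CPM after AOM-DSS and 40.6 ± 26.0 CPM in untreated WT colon, a log2 fold change of -1.96 beside the -5.45 of Smox-/- mice (adjusted p of the difference 0.0771). Tmx4, a redox protein of the endoplasmic reticulum, had a log2 fold change of 0.82 in Smox-/- and of -0.80 in WT mice (adjusted p of the difference 0.0523). These 3 were read among the genes named above, and none of the differences passed.

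The medians of some lists stood side by side as follows. The genes of enteric neuron and glia had a median of 1.61 in Smox-/- and -2.16 in WT mice, and those of the mitochondrial genome 0.72 in Smox-/- and -1.44 in WT mice. In Smox-/- mice that drank spermidine these medians were -1.50 and -0.70, of the same sign as in WT mice. There 15 of 17 neuron and glia genes and all 15 mitochondrial genes had a negative fitted change. For mt-Atp6, picked after its values were seen, the difference between Smox-/- and WT mice had an unadjusted p of 2.96e-05. No member of either list passed after adjustment. The WT medians leaned on WT untreated replicate 3, in which enteric neuron and glia genes summed to 943 CPM, against 379 and 316 CPM in WT untreated replicates 1 and 2. Without it the WT medians were -1.27 for enteric neuron and glia and -0.54 for the mitochondrial genome. Interferon genes had -1.29 in Smox-/- and -0.82 in WT mice, the second being -0.10 without that library. Xenobiotic genes had -1.24 in Smox-/- and -0.82 in WT mice, the second being -0.53 without the same library. The Hox family had -1.05 in Smox-/- and -1.39 in WT mice, and tuft cell genes -1.20 and -1.96. In Smox-/- mice that drank spermidine, interferon genes had -1.35, xenobiotic genes -0.855, the Hox family -1.46, tuft cell genes -0.17 and neutrophil genes 2.37. Neutrophil genes had 0.70 in Smox-/- and 2.86 in WT mice, or 1.86 without WT AOM-DSS replicate 1, where untreated colon held less of them. Their sum was 129 to 761 CPM in untreated Smox-/- colon and 18.1 to 59.5 CPM in untreated WT colon. Enteric neuron and glia genes summed to 178 to 238 CPM in untreated Smox-/- colon and 316 to 943 CPM in untreated WT colon. After AOM-DSS they summed to 251 to 469 CPM in Smox-/- and 201 to 230 CPM in WT mice. The mitochondrial genome took 3.12 to 4.12% of untreated counts in Smox-/- and 6.95 to 21.7% in WT mice. After AOM-DSS it took 4.52 to 6.10% in Smox-/- and 3.65 to 5.55% in WT mice. The part of untreated levels in these medians was not tested.

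In Smox-/- mice that drank spermidine AOM-DSS called 4 genes (0.0205%), none of them among the 15. Of the 15, 13 had the same sign, 6 of them with an unadjusted p under 0.05. The test of the difference without and with spermidine called 0 genes (0%) with edgeR, whereas the count by DESeq2 was 295. Before adjustment 2759 genes lay under 0.05 (14.1%). Osr2 averaged 26.0 ± 44.0 CPM after AOM-DSS with spermidine and 79.0 ± 58.4 CPM with spermidine alone, with 1 AOM-DSS library at 76.8 CPM and the others at 0.474 and 0.804 CPM. Its log2 fold change was -1.60, beside -8.43 without spermidine (adjusted p of the difference 0.196). Hoxd10 averaged 0.929 ± 0.258 CPM after AOM-DSS with spermidine and 9.90 ± 1.06 CPM with spermidine alone (adjusted p of the difference 0.736). Pam had a log2 fold change of 0.53 with spermidine, beside 1.43 without (adjusted p of the difference 0.226).

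**Figure D5:**
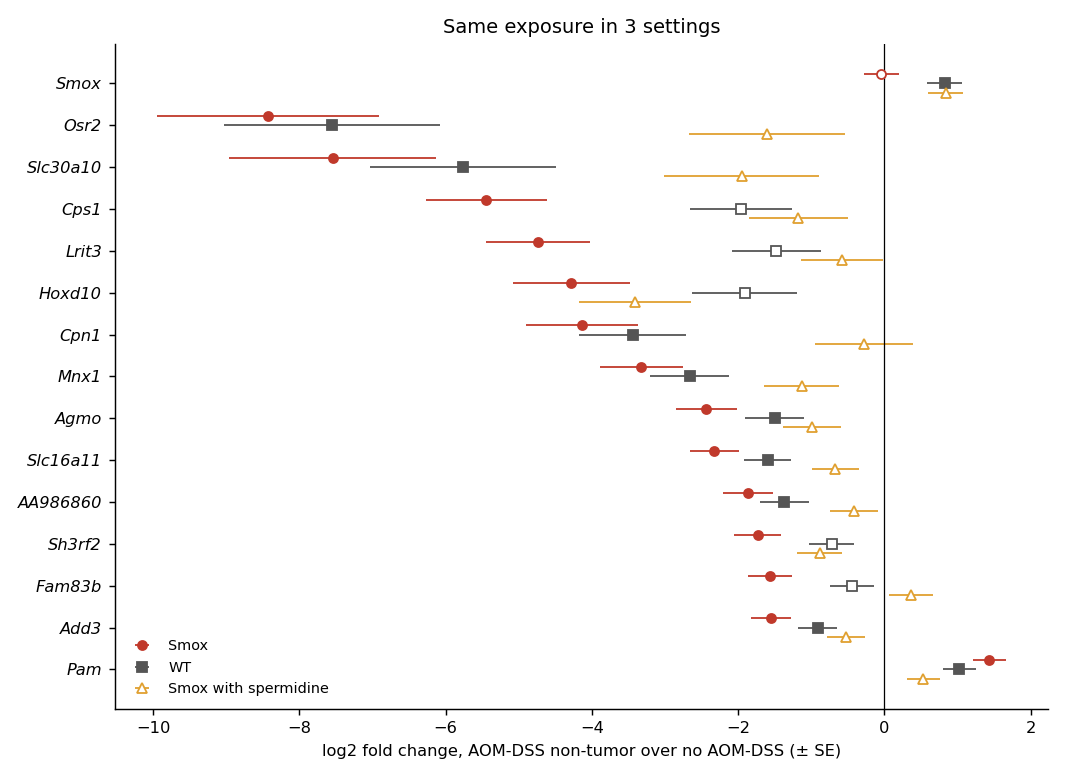
Log2 fold change with its SE of Smox and 14 of the 15 genes called in Smox-/- non-tumor colon, for AOM-DSS in Smox-/- mice (circles), WT mice (squares) and Smox-/- mice that drank spermidine (triangles), each against its own colon without AOM-DSS; filled points have an adjusted p under 0.05. Most points of a gene lie on the same side of 0, and no difference between settings passed the threshold.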

How the data were processed

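Total RNA of the colon was purified on RNeasy columns and made into libraries with the NEBNext Ultra II Directional kit, per the labels' protocols. The authors deposited expected counts (estimated counts per gene, whole numbers in the file) for 31023 genes and 30 libraries, and the submitters' processing notes name fastp, Salmon, DESeq2 and GRCm38 without versions or settings, so whether strand was used is not given in the sources used here. Such counts share reads between near-identical genes by estimation.

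The 30 libraries, in 10 groups of 3, held 33060607 to 81011304 counts. filterByExpr (minimum count 10, minimum total 15) kept 19558 genes, and the 11465 removed held a median of 0.0165% of a library. edgeR 4.0.16 in R 4.3.3 fitted 1 mean per group with TMM scaling and robust quasi-likelihood dispersion (20 residual degrees of freedom), with Benjamini-Hochberg adjustment across the genes tested and a threshold of 0.05. Two-sided contrasts were used. The SE is the absolute log2 fold change over the root of F, and CPM uses TMM-scaled library sizes. Coordinates and missing symbols came from GENCODE vM21. For each p-value the spread between replicates was pooled over the 10 groups of 3, tumors included, and not taken from the compared groups alone.

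Genes were named by rule: Smox, up to 12 rises and 12 falls by size (called, without overlap, with a mean of 2 CPM or more on the higher side and 3 counts or more summed on the lower), filled with those of lowest p, then called or highest members of each list. Other members were named after their values were seen, and 1 of the 15 called genes is not reported here. The members, lists and tests were chosen with earlier results of these data known. On simulated data with 19303 genes tested, the main contrast recovered 26% of 2-fold and 54.2% of 4-fold changes, and 7.14% of calls were false. These shares are of changed genes that passed the filter, in 1 draw. Genes were drawn independently, so the simulation holds no shared differences in tissue content between libraries. Each result was recomputed with DESeq2 1.42.0, with RLE scaling, without a filter, with at least 1 CPM in 3 libraries, from only the groups compared, and without libraries that stand apart or each library of the groups compared in turn. The medians of some lists in WT colon, without the Hox family and tuft cells, were also taken without each WT library, a choice made after seeing the data.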

Additional observations from a re-analysis of the deposited data

How the results depend on the processing

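The count of genes changed by AOM-DSS in Smox-/- non-tumor colon, 15 as reported, was 529 with DESeq2, 9 with no filter on low counts, 61 in a model of only the groups compared and 164 without the 2 libraries that stand apart from their groups (replicate 3 of untreated WT and replicate 1 of Smox-/- AOM-DSS with spermidine). It was 30 when Smox untreated replicate 3 was also left out, an alternative chosen after seeing the data. It ran from 0 to 25 with each library of the groups compared left out in turn. The count for the difference between Smox-/- and WT, 0 as reported, was 1236 with DESeq2, 1 with RLE scaling, 75 with the filter of 1 CPM and 1 without those 2 libraries. It was 0 to 460 with each library of the groups compared left out. The count for the difference without and with spermidine, 0 as reported, was 295 with DESeq2, 1 in a model of only the groups compared and 1 without those 2 libraries. It was 0 to 9 with each library of those groups left out. The cause of these shifts was not tested. The called genes kept their direction under 13 alternatives, or 12 for Lrit3, which the filter of 1 CPM removes. Fitted changes that turned sign with a library left out ran from -0.20 to 0.0775 for Smox, from -1.50 to 0.52 for Myh11, from -1.12 to 3.05 for Saa3, from -1.20 to 1.11 for Nos2, from -0.17 to 0.12 for Epcam, from -0.16 to 0.0740 for Hoxb9 and from -0.18 to 0.59 for Hoxb13. In the alternative added later Hoxb9 was at 0.0769 and Hoxb13 at -0.12. No paired analysis was possible because the labels give no replicate numbers that pair samples across groups. With 3 libraries a group, changes of 2-fold were mostly not detectable in the simulation.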
